A study of Mus musculus and Rattus norvegicus with 85 samples.

Results

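Levels of 7 genes of the glucocorticoid response were followed through lungs of mice and rats that inhaled chloroprene, a chlorinated diene used to make synthetic rubber. They were Zbtb16, Fkbp5, Tsc22d3, Sgk1, Klf9, Ddit4 and the receptor gene Nr3c1. Every probe set (a group of oligonucleotides on the array that reads 1 transcript) annotated to 1 of these symbols was taken, 25 in the mouse and 10 in the rat. These were 7 of the 19925 genes annotated over both species. All 7 had mouse probe sets, and 6 had rat probe sets on the arrays, since none was annotated to Zbtb16 there. All of these genes passed the filter on low signal, with 21 mouse and 9 rat probe sets.

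The animals were females, 10 weeks old at the start, kept in whole-body chambers for 6 h a day on 5 days a week. B6C3F1/Crl mice breathed 0.3, 2, 13 or 90 ppm for 5 or for 15 exposure days, and a further group was held at 0 ppm for 5 exposure days. Rats, spelled F344/NCrl in the series text and F334/NCrl in the strain field, breathed 5, 30, 90 or 200 ppm for 5 or for 15 exposure days. Each group held 5 animals with 1 array of the right lung each, 85 arrays in all, whose number limits the precision. Neither mice at 0 ppm after 15 days nor rats at 0 ppm were analysed here, so a response already present at the lowest concentration of those groups was not measured. For 9 of the 15-day mice the labels give another duration than the title that placed them (3 at 0.3 ppm, 2 at 2 ppm, 1 at 13 ppm and 3 at 90 ppm). The 7 lung epithelial markers, among them the surfactant gene Sftpc and the club cell gene Scgb1a1, were all measured in both species. Their mean log2 signal lay between 13.8 and 14.1 on the mouse arrays and between 13.4 and 13.7 on the rat arrays.

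Glucocorticoids are adrenal steroid hormones that bind a receptor held in the cytoplasm by heat shock proteins and immunophilins. The hormone-bound receptor enters the nucleus, binds palindromic response elements and raises the transcription of a set of genes found in many tissues, while it lowers many inflammatory genes. In the lung this response is known for airway and alveolar maturation and for the action of inhaled steroids, and stress and the daily hormone rhythm raise it as well. Fkbp5 encodes an immunophilin that lowers the hormone binding of the receptor and so acts as feedback. Zbtb16 encodes a zinc finger repressor, Klf9 a Krüppel-like transcription factor, and Tsc22d3 the leucine zipper protein GILZ, which restrains inflammatory transcription factors. Sgk1 encodes a kinase that acts on sodium channels and Ddit4 an inhibitor of mTOR complex signalling, and both also answer to signals other than glucocorticoids. Nr3c1 encodes the receptor itself.

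Upstream sequences were taken from RefSeq on GRCm38.p6, as the 250 bases before each annotated start, for 5 of the genes (12 windows). No window of Zbtb16 or Nr3c1 was searched as a member, and member windows on 1 chromosome were excluded beforehand by choice. The 3 shown were picked because Fkbp5 and Tsc22d3 varied together from animal to animal, whereas the level of Sgk1 was nearly flat. Fkbp5 had 1 window, and of the 3 windows of Tsc22d3 and the 6 of Sgk1 the 1 with the most matches to the response element is shown, chosen after the search. Capitals mark the palindromic element or a single arm of it, and the Fkbp5 window holds neither.

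Fkbp5, chr17:28486150-28486399, minus strand: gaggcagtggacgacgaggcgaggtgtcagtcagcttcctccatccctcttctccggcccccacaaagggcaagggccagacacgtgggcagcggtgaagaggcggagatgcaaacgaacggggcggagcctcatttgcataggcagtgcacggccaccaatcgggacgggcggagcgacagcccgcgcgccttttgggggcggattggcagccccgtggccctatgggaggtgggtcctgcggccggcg
Tsc22d3, chrX:140600523-140600772, minus strand: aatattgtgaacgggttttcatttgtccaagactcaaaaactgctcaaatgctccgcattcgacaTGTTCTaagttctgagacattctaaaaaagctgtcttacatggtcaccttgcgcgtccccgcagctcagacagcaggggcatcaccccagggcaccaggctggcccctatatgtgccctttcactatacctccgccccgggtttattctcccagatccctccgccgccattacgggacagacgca
Sgk1, chr10:21993640-21993889, plus strand: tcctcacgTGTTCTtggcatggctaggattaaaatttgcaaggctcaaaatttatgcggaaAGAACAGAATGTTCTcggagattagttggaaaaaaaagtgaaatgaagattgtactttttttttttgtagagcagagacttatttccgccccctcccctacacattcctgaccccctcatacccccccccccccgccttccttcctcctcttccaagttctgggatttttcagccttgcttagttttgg

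The palindrome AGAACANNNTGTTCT was searched on both strands, and so were its looser core ACANNNTGT and its arm AGAACA, which lie inside it. The palindrome stood in 1 of the 6 Sgk1 windows, ending 175 bases before that start, where a further arm lies upstream of it, and in 3 of the 32851 windows of the whole table (0.00913%). Of the 3 Tsc22d3 windows 1 held a copy of AGAACA, on the reverse strand, and the other two held none of these motifs. The arm is a motif present in 16.1% of all windows, and the core was in 5.84% of them. The single windows of Fkbp5, Klf9 and Ddit4 held none of these motifs. A match here is a description of the letters and does not show a binding site. An absence from these 250 bases does not show that a gene lacks an element elsewhere.

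The log2 signal of Fkbp5 was highest on average in the mice at 90 ppm and was scattered at the concentrations between. After 5 days it was 8.94, 8.96, 8.90, 9.39 and 9.13 in the 5 mice at 0 ppm, in order of animal number as in the titles. At 0.3 ppm it was 9.05, 10.70, 10.36, 10.56 and 11.65. At 2 ppm it was 10.10, 9.97, 11.37, 10.98 and 11.31. Thus 4 of 5 mice at 0.3 ppm and all 5 at 2 ppm lay above every mouse at 0 ppm. At 13 ppm the values were 8.95, 10.80, 10.48, 10.72 and 11.35, and at 90 ppm 12.11, 12.10, 11.94, 12.23 and 11.52. One mouse at 13 ppm was thus within the range of 0 ppm, and the 90 ppm mice were all above 0 ppm. The 90 ppm mouse with the lowest Fkbp5 (11.52) lay below the highest mouse at 0.3 ppm (11.65). Group means were 9.07 ± 0.20 at 0 ppm, 10.46 ± 0.94 at 0.3 ppm, 10.75 ± 0.67 at 2 ppm, 10.46 ± 0.90 at 13 ppm and 11.98 ± 0.28 at 90 ppm (SD, n = 5 each). The means at 0.3, 2 and 13 ppm lay within 1 SD of each other, and the means at 0 and 90 ppm had the smallest SDs of the 5.

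Zbtb16 was scattered in a similar way. Its log2 signal was 9.62, 8.43, 8.08, 8.72 and 8.42 at 0 ppm after 5 days. At 0.3 ppm it was 9.09, 11.37, 10.83, 11.47 and 12.07. The mouse with the lowest value at 0.3 ppm was the one with the lowest Fkbp5, and the other 4 lay above all mice at 0 ppm. At 2 ppm the values were 9.87, 10.43, 11.87, 11.27 and 11.22, and at 13 ppm they were 9.53, 11.39, 11.24, 11.53 and 11.85. At 90 ppm they were 11.81, 11.54, 11.65, 11.92 and 11.29. The 90 ppm mice therefore overlapped with those at 0.3, 2 and 13 ppm for Zbtb16, while lying above all at 0 ppm.

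**Figure D1:**
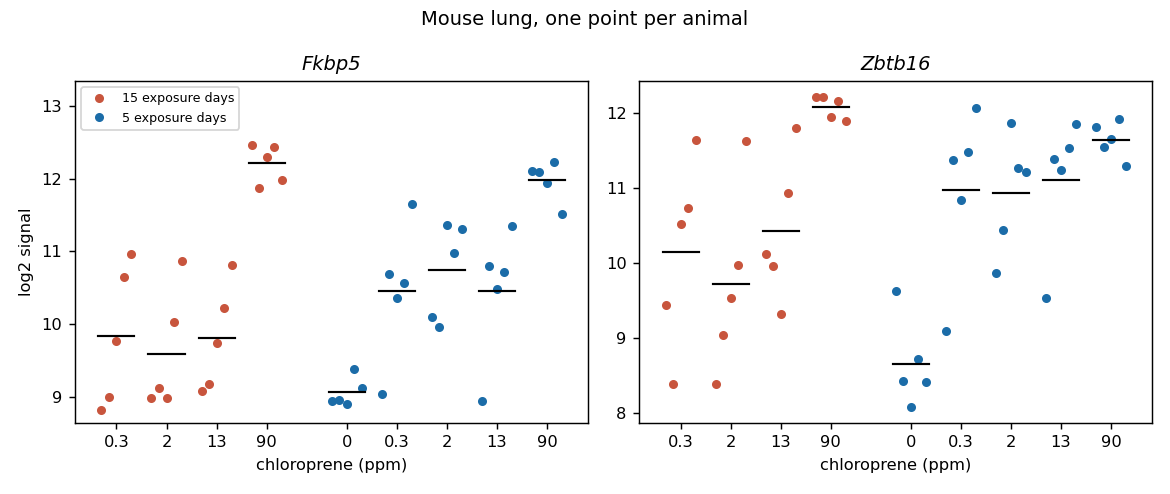
Log2 signal (vertical axis) of Fkbp5 and Zbtb16 in each mouse by chloroprene concentration in ppm (horizontal axis), after 15 exposure days (red) and 5 exposure days (blue); points run by animal number within a group and the bar is the group mean. The 90 ppm mice form a tight cluster at 11.52 to 12.46 for Fkbp5, and mice at 0.3 to 13 ppm spread from 8.83 to 11.65.

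These 5-day contrasts and the 15-day contrast of 90 with 0.3 ppm were known when the set was made, and the genes were chosen by their values there, so their differences are given as a description. Between 90 and 0 ppm after 5 days, Zbtb16 differed by 2.99 ± 0.53 (7.95-fold) and Fkbp5 by 2.91 ± 0.42 (7.53-fold) on the log2 scale (SE of the limma fit). Tsc22d3 differed by 0.44 ± 0.19, Klf9 by 0.24 ± 0.20, Ddit4 by 0.13 ± 0.24, Sgk1 by 0.01 ± 0.10 and Nr3c1 by -0.28 ± 0.18. Their median was 0.24, beside 0.01 for all 13796 genes. Zbtb16 and Fkbp5, 2 of the 7, were called, where 16.3% of all genes were, and the same 2 had groups that did not overlap, which held upward for 7.99% of all genes. Whether a changed RNA level per cell or a changed share of a cell type lies behind a difference cannot be told apart in these bulk samples.

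At the lowest concentration the differences were already large for Zbtb16 and Fkbp5. Between 0.3 and 0 ppm after 5 days, Zbtb16 differed by 2.31 ± 0.53, Fkbp5 by 1.40 ± 0.42, Tsc22d3 by 0.38 and Klf9 by 0.36. No gene of the 13796 was called in that contrast by limma, where 514 had an unadjusted p under 0.05. Measured against the 0.3 ppm mice instead, the change of Zbtb16 to 90 ppm was 0.68 and that of Fkbp5 1.52. For 13 ppm against 0.3 ppm they were 0.14 for Zbtb16 and -0.00 for Fkbp5. The mean at 0.3 ppm was thus nearer to the mean at 13 ppm than to that at 0 ppm for both genes. Of the 7 genes only Fkbp5 was called between 90 and 0.3 ppm, beside 9.86% of all genes (without mouse 117 at 0.3 ppm it was 1.16 and no longer called), and none was called between 13 and 0.3 ppm (0.348% of all) or between 2 and 0.3 ppm (0.0797% of all). Between 13 and 0 ppm 1 was called, Zbtb16 (1.30% of all), and between 2 and 0 ppm 2 were, Zbtb16 and Fkbp5 (1.20% of all), both without overlap, as held upward for 3.66% of all genes. Both calls at 2 ppm were lost without mouse 102, 103 or 105 at 0 ppm or mouse 135, 136 or 137 at 2 ppm, and that of Fkbp5 also without mouse 101 at 0 ppm. Without mouse 149 at 13 ppm Fkbp5 was called there as well (1.77). The RNA integrity number is missing for 3 of the 5 mice at 0 ppm and 2 of the 5 at 2 ppm. Without these arrays only the calls at 90 ppm were left, whether the number was a covariate or not.

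After 15 days the log2 signal of Fkbp5 at 0.3 ppm was 8.83, 9.01, 9.78, 10.65 and 10.97. It was 8.98, 9.12, 8.99, 10.03 and 10.87 at 2 ppm, and 9.09, 9.19, 9.75, 10.22 and 10.81 at 13 ppm. At 90 ppm it was 12.46, 11.87, 12.30, 12.44 and 11.98. All 90 ppm mice lay above all others of that time, and the lower 3 groups covered the same range. The difference of 90 from 0.3 ppm was 2.36 ± 0.42 for Fkbp5 and 1.94 ± 0.53 for Zbtb16. For Tsc22d3 it was 0.40, for Klf9 0.33, for Sgk1 0.15, for Nr3c1 -0.20 and for Ddit4 -0.22. Fkbp5 and Zbtb16 were called, beside 7.97% of all genes, and did not overlap between the groups, as held upward for 2.27% of all genes. Without the 9 mice whose duration labels conflict, the difference was 2.54 ± 0.68 for Fkbp5 and 1.65 ± 0.85 for Zbtb16, and without the 6 mice with a letter after their number 2.24 for Fkbp5 and 1.50 for Zbtb16. With either set left out Zbtb16 was no longer called, nor was it without mouse 125 (1.76) or mouse 126 (1.50) at 0.3 ppm. Ddit4 stood at 0.20 without the mice of conflicting duration.

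The individual 15-day values of Zbtb16 were 9.44, 8.39, 10.51, 10.73 and 11.64 at 0.3 ppm. At 2 ppm they were 8.39, 9.04, 9.54, 9.97 and 11.62, and at 13 ppm 10.11, 9.96, 9.31, 10.92 and 11.80. At 90 ppm they were 12.21, 12.20, 11.94, 12.16 and 11.89. The 90 ppm group had the smallest SD of Zbtb16 over the 9 mouse groups, 0.15, and the 0.3 ppm group of the same time the highest, 1.25.

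The other mouse contrasts were not used in choosing the genes and were tested with limma, adjusted over all genes by Benjamini-Hochberg at 0.05. After 15 days, the difference of 13 from 0.3 ppm was -0.03 ± 0.42 for Fkbp5 (adjusted p = 0.99) and 0.28 for Zbtb16 (adjusted p = 0.95). At 2 ppm the difference from 0.3 ppm was -0.25 for Fkbp5 and -0.43 for Zbtb16 (adjusted p = 1 for each). No member was called in either (0.326% and 0.109% of all genes were). Between 15 and 5 days no member was called at any concentration, where 0, 0.0435, 2.28 and 0.123% of all genes were called at 0.3, 2, 13 and 90 ppm. Fkbp5 differed between the times by -0.62 (adjusted p = 0.50) at 0.3 ppm, -1.15 ± 0.42 (adjusted p = 0.20) at 2 ppm, -0.65 (adjusted p = 0.33) at 13 ppm and 0.23 (adjusted p = 0.95) at 90 ppm. Klf9 came nearest, with -0.55 ± 0.20 (adjusted p = 0.096) at 13 ppm. It passed there without mouse 161 of the 15-day group (-0.74, adjusted p = 0.0288) or mouse 149 of the 5-day group (-0.67, adjusted p = 0.0388). At 0.3 ppm 1898 genes had an unadjusted p under 0.05. The change in the 90-to-0.3 ppm difference between 15 and 5 days was 1.26 ± 0.76 for Zbtb16 (adjusted p = 0.74) and 0.85 ± 0.60 for Fkbp5 (adjusted p = 0.75), beside 0.0435% of all genes called.

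Tsc22d3 and Klf9 differed less between groups. Tsc22d3 had a log2 signal of 12.84, 12.88, 13.02, 12.87 and 13.29 at 0 ppm after 5 days and 12.97, 13.53, 13.34, 13.30 and 13.69 at 0.3 ppm. It was 13.45, 13.52, 13.46, 13.55 and 13.12 at 90 ppm. At 0.3 ppm 4 of 5 mice and at 90 ppm 4 of 5 lay above all at 0 ppm. Klf9 ranged from 12.46 to 12.58 at 0 ppm, with an SD of 0.05, and at 0.3 ppm it was 12.44, 12.95, 12.96, 12.95 and 13.21. At 90 ppm Klf9 ranged from 12.20 to 13.04. Here too 4 of 5 mice in each of these groups lay above every mouse at 0 ppm. Sgk1 had group means of 12.17 to 12.46 and Ddit4 of 10.47 to 10.86 across the 9 mouse groups.

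The receptor gene Nr3c1 had group means between 11.11 and 11.62 in the mouse. Its lowest values were 10.46 in 1 mouse at 90 ppm after 5 days, whose group mates ran from 11.25 to 11.70, and 10.53 in 1 mouse at 90 ppm after 15 days. The 5 kept probe sets of Nr3c1 gave differences of -0.49 to -0.16 between 90 and 0 ppm. Among probe sets of the other genes, 1 departed: 1427638_at of Zbtb16 differed by 0.82 between 90 and 0 ppm, where 1439163_at, which represents the gene, gave 2.99 and 1419874_x_at gave 2.73. On 1427638_at Zbtb16 differed from 0 ppm by 0.82 at 90 ppm, 0.46 at 13 ppm, 0.30 at 2 ppm and 0.27 at 0.3 ppm. None of these was called, which is a description, since the genes were chosen by these contrasts. For Fkbp5 1448231_at gave 2.38 beside 2.91 for 1416125_at, and the 6 probe sets of Klf9 gave 0.16 to 0.34.

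In the rat the genes were compared with 5 ppm, the lowest concentration there. Fkbp5 had a log2 signal of 8.57, 8.64, 9.35, 9.52 and 9.78 at 5 ppm after 5 days. At 30 ppm it was 8.28, 8.42, 9.81, 9.62 and 10.74, and at 90 ppm 8.27, 9.05, 9.69, 10.51 and 10.26. At 200 ppm it was 8.89, 9.45, 9.66, 10.28 and 10.78. Every group overlapped with every other, and within each the values spanned at least as much as the group means differed. The mean of Fkbp5 was 9.17 ± 0.54, 9.37 ± 1.03, 9.56 ± 0.92 and 9.81 ± 0.74 at 5, 30, 90 and 200 ppm (SD, n = 5 each), and at 200 ppm it differed from 5 ppm by 0.64 ± 0.44 (adjusted p = 0.229).

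Klf9 alone passed the test at the highest concentration. Its log2 signal was 11.80, 12.12, 11.92, 12.17 and 12.09 at 200 ppm after 5 days, against 10.79, 11.23, 11.49, 11.70 and 11.91 at 5 ppm. The 200 ppm rats sat at the top of the 5 ppm range or above it. Klf9 rose by 0.59 ± 0.21 (adjusted p = 0.0264), 1 of 6 members called, beside 36.3% of all genes called and 4.68% of all genes that rose. Without rat 217 at 5 ppm the difference of Klf9 was 0.44 (adjusted p = 0.142), and the call also went without rat 219 at 5 ppm (adjusted p = 0.0634) and without rats 266, 268 or 269 at 200 ppm (adjusted p = 0.057, 0.0553 and 0.0521). The RNA integrity number ran from 7.1 to 8.7 in 4 of these 200 ppm rats and from 7.3 to 8.5 in these 5 ppm rats, and is missing for rat 269. Over the rats that have it, Klf9 differed by 0.61 with the number as covariate (adjusted p = 0.0517) and by 0.58 without it (adjusted p = 0.0568). Most genes called in the contrast fell (31.6% of all genes), and the median of all genes was -0.14 where that of the 6 members was 0.50.

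Ddit4 from lowest to highest was 9.22, 9.30, 9.95, 10.55 and 10.55 in the 200 ppm rats after 5 days, against 8.58, 8.59, 8.73, 9.70 and 9.82 at 5 ppm, and the groups overlapped. Tsc22d3 was 12.39, 12.73, 12.77, 12.84 and 12.84 at 200 ppm, against 12.19, 12.30, 12.31, 12.49 and 12.51 at 5 ppm, with 4 of the 200 ppm rats above all 5 ppm rats. Ddit4 differed by 0.83 ± 0.35 (adjusted p = 0.062), Nr3c1 by 0.41 ± 0.23 (adjusted p = 0.14), Tsc22d3 by 0.35 ± 0.19 (adjusted p = 0.13) and Sgk1 by 0.08 ± 0.10 (adjusted p = 0.53) between 200 and 5 ppm. Ddit4 passed without rat 268 or 269 at 200 ppm, rat 219 at 5 ppm or rat 253 at 90 ppm (adjusted p = 0.0461, 0.0443, 0.0424 and 0.0481). Over the rats with an RNA integrity number, which leaves out rat 269, it was 1.07 with the number as covariate (adjusted p = 0.04) and 1.00 without it (adjusted p = 0.0483). Nr3c1 passed between 200 and 5 ppm on its other kept probe set, 1368222_at (0.56, adjusted p = 0.0205), with the mean of its probe sets (0.48, adjusted p = 0.041) and with the 3' to 5' difference of control probe sets as covariate (0.61, adjusted p = 0.0164). Nr3c1 at 90 ppm differed from 5 ppm by 0.50 (adjusted p = 0.083) and its 90 ppm rats (10.50 to 10.60) lay above all 5 ppm rats (9.43 to 10.40), as held upward for 2.88% of all genes. The RNA integrity numbers of these groups did not overlap either, at 9.2 to 9.3 in the 90 ppm rats and 7.3 to 8.5 in the 5 ppm rats. With the number as covariate Nr3c1 differed by 0.39 (adjusted p = 0.333) and 17 genes in place of 2598 were called, against 2159 over the same rats without the covariate. Between 90 and 5 ppm no member was called (23.6% of all genes were), with Klf9 at 0.50 (adjusted p = 0.066), Ddit4 at 0.61 (adjusted p = 0.16) and Fkbp5 at 0.39 (adjusted p = 0.46). In that contrast Klf9 passed without rat 222 at 5 ppm, 239 at 30 ppm, 249 at 90 ppm or 277 at 200 ppm after 15 days (adjusted p = 0.0206, 0.0483, 0.0374 and 0.0434), and Nr3c1 without rat 222 or 239 (adjusted p = 0.043 and 0.0441). Between 30 and 5 ppm no gene at all was called by limma, and 1477 had an unadjusted p under 0.05.

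After 15 days no rat member was called. Fkbp5 was 8.22, 8.35, 8.40, 9.25 and 9.64 at 5 ppm and 8.54, 8.78, 8.80, 8.78 and 8.86 at 30 ppm. It was 8.48, 9.08, 9.32, 9.54 and 9.81 at 90 ppm and 8.65, 8.68, 10.05, 9.41 and 10.72 at 200 ppm. The difference of Fkbp5 between 200 and 5 ppm was 0.73 ± 0.44 (adjusted p = 0.376) and that of Tsc22d3 0.51 ± 0.19 (adjusted p = 0.16), beside 0.817% of all genes called. At 90 ppm Fkbp5 differed from 5 ppm by 0.47 (0.309% of all genes called). At 30 ppm Nr3c1 differed by -0.49 (adjusted p = 0.17), where 1.66% of all genes were called.

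Klf9 at 30 ppm from lowest to highest was 10.70, 10.95, 10.98, 11.31 and 11.35 in the rats after 15 days, against 11.20, 11.66, 11.84, 11.85 and 11.97 after 5 days, and only the lowest 5-day rat lay within the 15-day range. Between 15 and 5 days Klf9 missed the threshold: it differed by -0.65 ± 0.21 at 30 ppm (adjusted p = 0.0501), by -0.59 at 90 ppm (adjusted p = 0.054) and by -0.52 at 200 ppm (adjusted p = 0.076), with -0.01 at 5 ppm. At 30 ppm it passed in 13 of the sets that leave out 1 rat, with the lowest adjusted p without rat 239 (0.00662), where Nr3c1 also passed (-0.67, adjusted p = 0.0133). At 90 ppm Klf9 passed in 7 of those sets, and at 200 ppm without rat 279 (-0.58, adjusted p = 0.0432). At 5, 30, 90 and 200 ppm 0, 7.12, 11.0 and 0.127% of all genes were called, and at 5 ppm 893 had an unadjusted p under 0.05. The change in the 200-to-5 ppm difference between 15 and 5 days was -0.76 ± 0.32 for Nr3c1 (adjusted p = 0.077) and -0.52 ± 0.29 for Klf9 (adjusted p = 0.16), beside 11.4% of all genes called. That of Nr3c1 passed without rat 222, 239, 279 or 281 (adjusted p = 0.0405, 0.0378, 0.033 and 0.046).

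**Figure D2:**
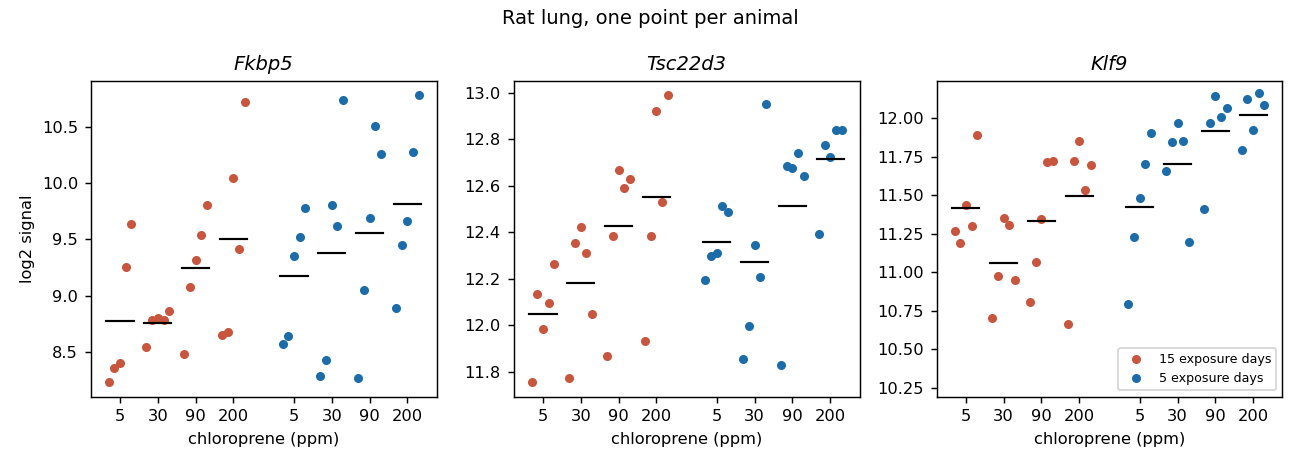
Log2 signal (vertical axis) of Fkbp5, Tsc22d3 and Klf9 in each rat by chloroprene concentration in ppm (horizontal axis), after 15 exposure days (red) and 5 exposure days (blue); bars are group means. Groups of the same time all overlap in Fkbp5, with values from 8.22 to 10.78 over both times.

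**Figure D3:**
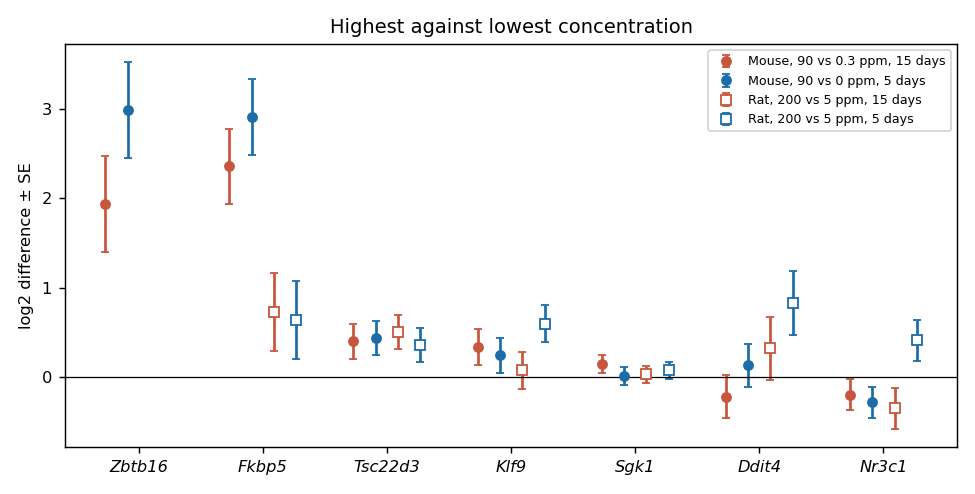
Log2 difference ± SE (vertical axis) of each of the 7 genes between the highest and the lowest concentration of a species and time, mouse in filled circles and rat in open squares. Zbtb16 has no rat point. Fkbp5 and Zbtb16 stand at 1.94 to 2.99 in the mouse, and no rat value exceeds 0.83.

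Within groups, animals with higher numbers in the titles had higher Fkbp5. The number is the animal's own, the labels do not say what it records, and the relation was noticed in these data and then tested on them. Rats 239, 269 and 282, each the highest number of its group, have titles of another form than the other rats. Their Fkbp5 (10.74, 10.78 and 10.72) lay above that of every other rat. In their groups the title form and the highest number cannot be told apart, and leaving these rats out together was not tested. In a limma fit of the log2 signal on the number within its group, Fkbp5 rose by 0.31 ± 0.05 per number in the mouse (adjusted p = 3.9e-05) and by 0.36 ± 0.03 in the rat (adjusted p = 8.22e-09). Zbtb16 rose by 0.33 ± 0.07 in the mouse (adjusted p = 0.00111). Tsc22d3 rose by 0.13 ± 0.02 in the mouse (adjusted p = 0.0004) and by 0.13 ± 0.02 in the rat (adjusted p = 8.71e-05), and Klf9 by 0.13 ± 0.03 (adjusted p = 0.000556) and 0.11 ± 0.03 (adjusted p = 0.0145). Thus 4 of 7 members rose in the mouse, beside 5.73% of all genes that rose and 18.9% that fell, and 3 of 6 in the rat, beside 1.14% that rose and 3.31% that fell. In all 24.6% of mouse genes and 4.44% of rat genes were called. The call of Klf9 in the rat was lost without rat 277 (0.089, adjusted p = 0.0785) or rat 217 (0.097, adjusted p = 0.0521). Both Fkbp5, 3 Zbtb16, 3 Tsc22d3 and 6 Klf9 probe sets kept in the mouse passed, and 14 of the 21 member probe sets in all.

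Sgk1, Ddit4 and Nr3c1 did not pass. Their slopes were -0.03 (adjusted p = 0.148), -0.02 (adjusted p = 0.727) and 0.02 (adjusted p = 0.695) in the mouse, and -0.04 (adjusted p = 0.0729), -0.09 (adjusted p = 0.399) and 0.01 (adjusted p = 0.899) in the rat. The Sgk1 slope in the rat passed when rat 265, 245, 239 or 228 was left out (adjusted p = 0.0482, 0.0341, 0.0285 and 0.0398).

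By group, the Fkbp5 slope was above 0 in 7 of 9 mouse groups and 8 of 8 rat groups. In the mouse after 5 days it was 0.08 at 0 ppm, 0.51 at 0.3 ppm, 0.34 at 2 ppm, 0.42 at 13 ppm and -0.10 at 90 ppm. After 15 days it was 0.59 at 0.3 ppm, 0.47 at 2 ppm, 0.45 at 13 ppm and -0.04 at 90 ppm. Mice at 90 ppm and at 0 ppm thus showed little of the relation, and the difference between the groups' slopes was not tested. In the rat it was 0.26, 0.42, 0.55 and 0.46 at 5, 30, 90 and 200 ppm after 5 days, and 0.37, 0.06, 0.31 and 0.39 after 15 days. The RNA integrity number changed by 0.024 ± 0.032 per animal number in the mouse and by 0.016 ± 0.050 in the rat, and the difference between 3' and 5' control probe sets by -0.0072 ± 0.0093 and -0.012 ± 0.0087.

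**Figure D4:**
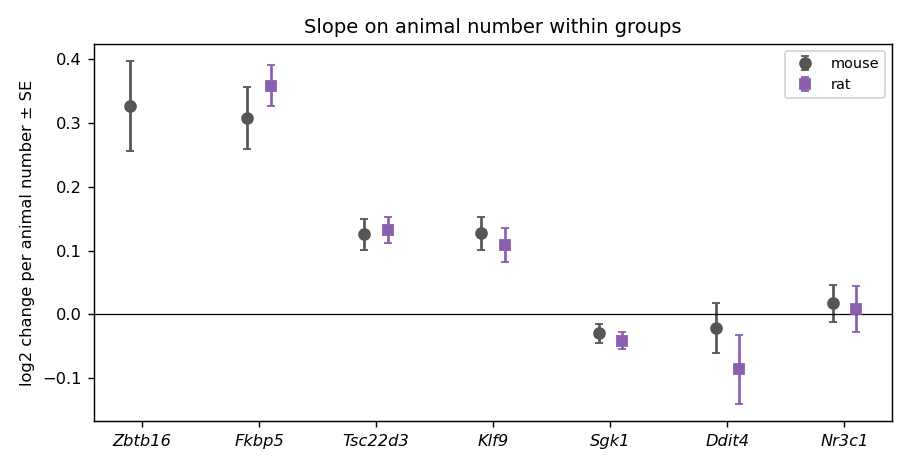
Change in log2 signal per animal number within groups ± SE (vertical axis) for each gene in the mouse (circles) and rat (squares). Zbtb16, Fkbp5, Tsc22d3 and Klf9 lie between 0.11 and 0.36, and Sgk1, Ddit4 and Nr3c1 lie between -0.09 and 0.02.

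Across animals, deviations from the group mean of Fkbp5 and of other members were correlated. These relations were 11 in number, each over 45 mice or 40 rats, with two-sided p from 100000 permutations within groups and Benjamini-Hochberg adjustment over the 11. An adjusted p of 3.7e-05 rests on the smallest p that these permutations can give. In the mouse, Fkbp5 correlated with Zbtb16 at r = 0.879 (rho = 0.860, adjusted p = 3.7e-05), with Tsc22d3 at r = 0.820 (rho = 0.808, adjusted p = 3.7e-05) and with Klf9 at r = 0.717 (rho = 0.713, adjusted p = 5.5e-05). Without the 2 mice farthest from the median of Fkbp5, r was 0.845, 0.797 and 0.668. With Ddit4 it was 0.336 (rho = 0.379, adjusted p = 0.069), with Sgk1 -0.271 (rho = -0.185, adjusted p = 0.17) and with Nr3c1 0.015 (adjusted p = 0.9). In the rat, Fkbp5 correlated with Tsc22d3 at r = 0.822 (rho = 0.766, adjusted p = 3.7e-05) and Klf9 at r = 0.478 (rho = 0.550, adjusted p = 0.0079), and negatively with Sgk1 at r = -0.418 (rho = -0.391, adjusted p = 0.042); without the 2 farthest rats r was 0.768, 0.588 and -0.371. The Spearman rho of Sgk1 did not pass after adjustment (adjusted p = 0.052). With Ddit4 r was -0.151 and with Nr3c1 -0.159 (adjusted p = 0.47 each).

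Removing the animal number before the correlation, a step chosen after seeing the data, left r at 0.807 for Zbtb16, 0.676 for Tsc22d3 and 0.495 for Klf9 in the mouse, and at 0.510 for Tsc22d3 in the rat (adjusted p = 0.024). For rat Klf9 it came to -0.076 and for rat Sgk1 to 0.034, so those relations did not hold without the number.

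**Figure D5:**
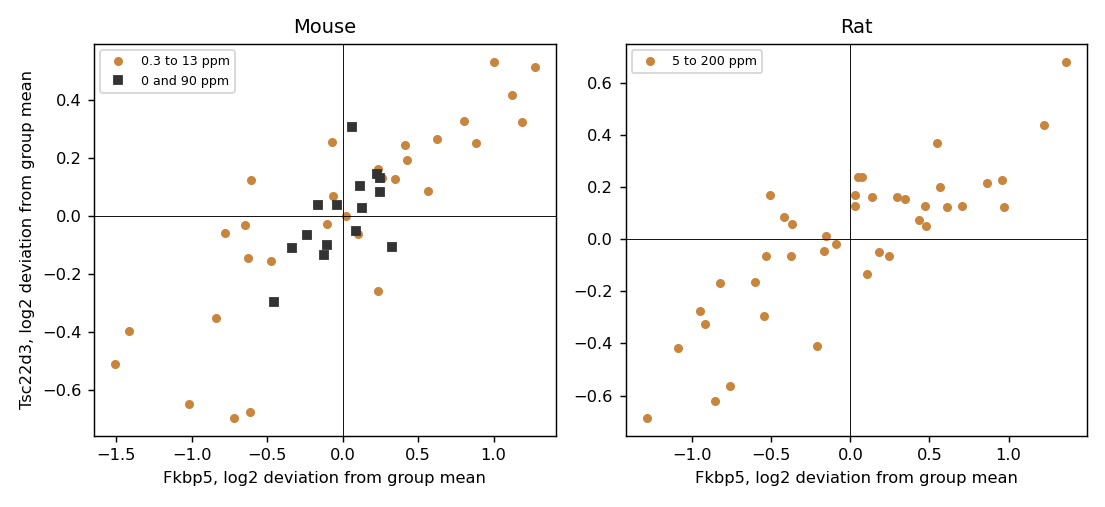
Deviation of Tsc22d3 from its group mean (log2, vertical axis) against that of Fkbp5 (log2, horizontal axis), 1 point per animal, in the mouse (left, r = 0.820) and rat (right, r = 0.822). In the mouse the groups at 0 and 90 ppm (black squares) cover a narrower range of Fkbp5 than those at 0.3 to 13 ppm (brown circles).

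Over all 45 mouse arrays and 13150 genes, the 5 genes most like Fkbp5 were Fam107a (Pearson r = 0.970), Angptl4 (0.956), Map3k6 (0.951), Fkbp14 (0.940) and Fdx1 (0.926), and Zbtb16 ranked 10 by r (0.906). For Zbtb16 they were Fkbp5 (0.906), Fam107a (0.879), Map3k6 (0.863), Mettl21e (0.862) and Lims2 (0.856). In the rat, over 40 arrays, Fkbp5 was followed by Spsb1 (0.940), Klf15 (0.926), Tent5b (0.904), Map3k6 (0.879) and C15h8orf58 (0.873). Map3k6, a kinase gene, was in the list of each of these. The arrays share groups and animal numbers, so these are descriptions.

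Genes known from other work to be induced by glucocorticoids, 22 of which were measured in the mouse, gave 10 that rose and 2 that fell between 90 and 0 ppm after 5 days, with a median of 0.22 beside 0.01 for all genes, of which 8.99% rose and 7.35% fell. This list and those below were put together with earlier results of these data known, so their counts are a description. The metallothioneins Mt2 (1.90 ± 0.15) and Mt1 (1.46 ± 0.14), the lipase inhibitor Angptl4 (1.39 ± 0.18) and the cell cycle inhibitor Cdkn1a (1.27 ± 0.17) were among the rises. Others of the list were lower at 90 ppm. Rgs2 had a mean log2 signal of 9.94 there, against 11.44 at 0 ppm, and Dusp1 of 12.85, against 13.65. After 15 days, 7 rose and 1 fell between 90 and 0.3 ppm, where 4.68% of all genes rose and 3.29% fell. Of 12 measured genes that glucocorticoids repress, 4 fell and none rose after 5 days, such as the adhesion gene Vcam1 (-0.64 ± 0.13) and the chemokine gene Ccl5 (-0.92), and 3 fell after 15 days. After 15 days none of 10 lymphocyte markers was called. Their mean log2 signal still ranged lower at 90 ppm (7.65 to 8.08, median 7.91) than at 0.3 ppm (7.93 to 8.45, median 8.39), with overlap. None of 8 receptor partners and hormone enzymes was called after 5 days, among them Hsd11b1, which regenerates active hormone (0.10), and the immunophilin Fkbp4 (0.16).

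Other signals moved in the contrast of 90 with 0 ppm after 5 days, in which 8.99% of all genes rose and 7.35% fell. Of 10 lymphocyte markers above the filter (of 12 listed) 6 fell between 90 and 0 ppm after 5 days, with a median of -0.77. The B cell gene Ms4a1 fell by 1.74 and the T cell gene Cd3g fell by 1.20. Their mean log2 signal ranged from 7.50 to 7.92 at 90 ppm, against 8.37 to 8.54 at 0 ppm, and their part in the results for the members was not tested. Of 15 clock genes 5 rose and 3 fell, with Cry1 at 1.46 and Nr1d1 at -1.72. Of 6 neutrophil, 4 adipose, 4 skeletal muscle and 6 cardiac muscle markers none passed. Of 7 lung epithelial markers 1 rose (Foxj1, 0.93) and 1 fell (Sftpa1, -0.12), and of 8 hypoxia genes 3 rose and 2 fell.

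In the rat, other glucocorticoid-induced genes gave no rise and 1 fall of 17 between 200 and 5 ppm after 5 days, where 4.68% of all genes rose and 31.6% fell, Angptl4 at -0.70 ± 0.20 (adjusted p = 0.010). Of 10 receptor partners, 1 rose and 2 fell, with Fkbp4 at -0.51, Stip1 at -0.35 and Hsd11b1 at 0.16. Of 14 clock genes 4 rose and 3 fell, and of 10 repressed genes 2 fell. All 3 measured cardiac muscle markers rose, Myl7 by 2.46 and Myh6 by 2.33, with a mean log2 signal of 6.04 to 8.81 at 200 ppm and 5.37 to 6.71 at 5 ppm. The part of this in the member values was not tested. No gene of any of the 11 lists was called between 200 and 5 ppm after 15 days.

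On the animal number, lymphocyte markers fell with higher numbers in both species, 7 of 10 in the mouse, where 18.9% of all genes fell and 5.73% rose, and 4 of 9 in the rat, where 3.31% fell and 1.14% rose, such as Cd79b by 0.20 in the mouse and by 0.12 in the rat. Of the other induced genes 2 rose and 2 fell in the mouse, and 4 rose and 1 fell in the rat. Of the repressed genes 4 of 12 fell in the mouse, among them Ccl5 (-0.15) and Il1b (-0.11), and 3 of 10 in the rat, among them Ccl2 (-0.16). Of receptor partners Stip1 and Fkbp4 rose in each species, by 0.12 and 0.07 in the mouse and by 0.05 and 0.07 in the rat. Of clock genes 5 of 15 rose and 2 fell in the mouse, with Cry1 at 0.11, Nr1d1 at -0.11 and Dbp at -0.10, and 1 of 14 rose and 1 fell in the rat. The mean log2 signal of the lung epithelial markers changed by 0.0035 ± 0.0063 per number in the mouse and 0.0046 ± 0.0047 in the rat. The part of lymphocyte and clock genes in the member slopes was not tested.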

How the data were processed

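Right-lung RNA of 45 mice and 40 rats was extracted with Trizol and RNeasy and hybridised to Affymetrix arrays, per the labels' protocols. The files hold log2 signals for each probe set as deposited, and how the authors summarized and normalized them is not given in the sources used here. Titles gave each animal's species, concentration and exposure days.

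Probe sets above the 40th percentile of all signals of the species (log2 6.67 for mice, 6.65 for rats) on at least 5 arrays were used. Those with several symbols or none, and controls, were left out. The remaining probe set with the highest mean stood for its gene, giving 13796 mouse and 11010 rat genes. Mouse symbols were matched by Entrez identifier (34754 probe sets), and rat symbols were used as annotated. With limma 3.58.1 in R 4.3.3, group means were fitted for each species separately with moderated variances, and Benjamini-Hochberg adjustment ran over all its genes (two-sided, threshold 0.05). These p-values measure the spread between animals within groups, as 1 variance per gene pooled over all groups of the species. The groups differ in that spread, as for Fkbp5 in the mouse (SD 0.20 to 0.96), so the SE of a contrast is not that of its own groups. Leaving out an animal outside a contrast can thus change its call. The fit was tested on simulated data.

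The members and lists were chosen with earlier results of these data known. The text names all 7 members, up to 4 genes a list by smallest p in the mouse 5-day contrast of 90 with 0 ppm, up to 3 in the rat contrasts of 200 with 5 ppm, and the 5 genes most like Fkbp5 or Zbtb16. Genes named on the animal number, and Rgs2 and Dusp1, were chosen after their values were seen. Alternatives were no filter, the 60th percentile, quantile normalization, mean or single probe sets, covariates, arrays of 1 time, arrays with an RNA integrity number, a robust variance trend, and leaving out animals.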

Additional observations from a re-analysis of the deposited data

Results flagged for a closer look

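Among 111 member-by-group sets of 5 animals, 9 had 1 animal far from the other 4 by Dixon's criterion, and chance alone flags about 1 in 20 such groups. Each was the lowest of its group. Animals 141, 149, 241, 249, 265 and 277 also have the lowest number of their group, and 169 and 239 the highest. These flags were not separated from the slopes on the number. In the mouse, Zbtb16 was 9.53 in animal 149 at 13 ppm after 5 days, where the others ran from 11.24 to 11.85. Tsc22d3 was 13.12 in animal 169 at 90 ppm after 5 days (others 13.45 to 13.55), and Ddit4 was 10.28 in animal 141 at 2 ppm after 15 days (others 10.82 to 11.00).

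In the rat, animal 249 at 90 ppm after 5 days was lowest for both Klf9 (11.41, others 11.97 to 12.14) and Tsc22d3 (11.83, others 12.64 to 12.74). Tsc22d3 was 12.39 in animal 265 at 200 ppm after 5 days (others 12.73 to 12.84). Nr3c1 was 9.30 in animal 239 at 30 ppm after 5 days (others 10.46 to 10.60). Klf9 was 10.67 in animal 277 at 200 ppm after 15 days (others 11.54 to 11.85), and Fkbp5 was 8.54 in animal 241 at 30 ppm after 15 days (others 8.78 to 8.86).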

How the results depend on the processing

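No paired analysis was possible because each animal has its own number and the groups share none. Direction held for all member differences that passed in the main comparisons under every alternative run. In the mouse these all lay in contrasts by which the genes were chosen, and the alternatives reuse the same arrays. Their direction and the counts of mouse calls in those contrasts are therefore a description and not a test. Of the member calls against 0 ppm in the mouse (5), 2 were left with the RNA integrity number as covariate, and likewise 2 over the same arrays without the covariate (an alternative added after seeing the data, since the number is missing for 5 mice, 3 of them at 0 ppm, and 2 rats), and 3 with the 3' to 5' difference, and leaving out 1 animal gave 3 to 6. Against 0.3 ppm after 15 days (2 calls), 1 was left without the mice of conflicting duration, 1 without the lettered mice, and 1 to 2 without 1 animal; after 5 days (1 call) leaving out 1 animal gave 0 to 1. Between 15 and 5 days in the mouse (0 calls), the animal number as covariate gave 1 and leaving out 1 animal 0 to 1; the difference between times stayed at 0 to 0.

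In the rat after 5 days (1 call) the mean of probe sets gave 3, the 3' to 5' difference 4, the animal number 4, and leaving out 1 animal 0 to 3. In the main fit 36.3, 23.6 and 0% of all genes were called at 200, 90 and 30 ppm against 5 ppm. Leaving out 1 rat gave 1389 to 5581, 36 to 5639 and 0 to 281 of 11010 genes. For most other settings, here and in the mouse, the share of all genes is not given. A changed count of member calls is thus not read as a result about the members. After 15 days (0 calls) the animal number gave 1 and leaving out 1 animal 0 to 0. Between 15 and 5 days (0 calls) the 60th percentile gave 1, quantile normalization 2, the mean of probe sets 1, the animal number 2, and leaving out 1 animal 0 to 3; the difference between times gave 0 to 1. Slope calls stayed at 4 to 4 in the mouse and ranged from 2 to 4 in the rat. With the animal number as covariate, added after seeing the data, Fkbp5 in the rat passed at 200 ppm after 5 days (0.64 ± 0.21, adjusted p = 0.0176) and Tsc22d3 at both times.

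The correlation of Fkbp5 with Ddit4 in the mouse was 0.363 after quantile normalization and 0.566 with the animal number removed, past the threshold in each. In the rat, removing it gave 0.034 for Sgk1, -0.076 for Klf9 and -0.425 for Nr3c1 (adjusted p = 0.043). The causes were not tested. Counts over all genes moved too: with the RNA integrity number, 761 in place of 2254 at 90 against 0 ppm in the mouse (769 over the same arrays without it), and 17 in place of 2598 at 90 against 5 ppm in the rat after 5 days (2159 without it); leaving out 1 rat gave 1389 to 5581 at 200 ppm after 5 days (3992) and 224 to 3496 on the animal number (489).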

Other observations

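Within groups, the genes closest to Fkbp5 in their deviations from the group mean, named after their values were seen, were Fam107a (r = 0.915), Klf15 (0.885), Herpud1 (0.882), Zbtb16 (0.879) and Map3k6 (0.879) in the mouse, and Foxo3 (0.941), Spsb1 (0.940), Klf15 (0.925), Tbc1d8 (0.915) and Map3k6 (0.913) in the rat. Klf15 encodes a Krüppel-like factor and Foxo3 a forkhead transcription factor, and Klf15 and Map3k6 were among the 5 in both species. Sgk1, with a mouse r of -0.271 to Fkbp5, ranked 9091 of 13150 mouse genes by this measure, and Nr3c1 ranked 5124.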
